A study of Rattus norvegicus with 9 samples.

Results

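The interleukin-1 family and its receptors were followed in dendritic cells of the rat through 9 genes, each taken from the deposited table by its symbol: Il1a, Il1b, Il18 and Il33 (ligands), Il1rn and Il18bp (secreted inhibitors), Il1r1 and Il1rap (signalling receptor chains) and Il1r2 (a decoy receptor). All 9 were found among the 20442 genes of the table, and all 9 reached 1 FPKM (a read level corrected for gene length and library depth) in at least 3 libraries, so none was lost to the filter on low values. The cells had been grown from bone marrow of wild-type rats with 10% serum, GM-CSF and IL-4 (20 ng/mL of each). The Control cultures (n = 3) are labelled as untreated, the LPS cultures (n = 3) received lipopolysaccharide, the endotoxin of Gram-negative bacteria, and the LPS+EVs cultures (n = 3) received LPS together with extracellular vesicles of ASCs, an abbreviation the labels do not spell out. A treatment text shared by all samples gives 1 µg/mL LPS, a time of 24 h and 50 ng/mL of an agent without a name, so it cannot be told which groups received that agent, and the vesicle dose is not given in the sources used here. Replicates are labelled biological, and separate animals are stated nowhere, so p-values measure the spread between these cultures.

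Depth ran from 32148519 to 39407116 assigned reads per library. Of the dendritic cell markers, Itgax (CD11c) stood at 29.8 to 52.0 FPKM across libraries. The summed level of 13 markers was 1283 to 8441 FPKM. Most of that sum was Cd74, whose group means ran from 2754 to 3403 FPKM, with RT1-Da next at 352 to 696 FPKM. Group means of Zbtb46 were low, at 1.81 to 2.43 FPKM, and Clec9a averaged at most 0.333 FPKM. Flt3 and Xcr1, markers of other dendritic cell subsets, averaged at most 0.0616 and 0.00679 FPKM in any group. Of 10 tested dendritic cell markers Ccr7 rose after LPS and 3 fell, near the shares of all tested genes (12.3% higher and 28.7% lower). With the replicate number as a block 6 fell, where 35.5% of all tested genes were lower. Among the 6 were the antigen presentation genes Cd74 (adjusted p = 0.0364), RT1-Da (0.00219) and RT1-Ba (0.00116). The Ccr7 call ended without Control replicate 1 (adjusted p = 0.104), Control replicate 2 (0.0776), LPS replicate 3 (0.0624) or the filter (0.0677). Macrophage and monocyte markers were also present, at 1315 to 2050 FPKM summed over 13 genes. Among 11141 tested genes limma called 1368 up and 3201 down after LPS against Control, 41% of all tested. Between LPS+EVs and LPS it called none, with or without the replicate number as a block, and 295 genes (2.65%) had an unadjusted p under 0.05. The median gene changed by -0.19 in LPS on the log2(FPKM + 1) scale, and scaling that sets this median to zero gave 1895 higher and 2307 lower. Changes below are on the deposited scale and can be read against that median. In RNA from whole cultures, fewer cells of a type and less RNA per cell cannot be told apart.

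Interleukin-1 alpha and beta are separate ligands of one receptor. Il1r1 binds either of them and then recruits Il1rap, the accessory chain that interleukin-33 and interleukin-36 receptors share, and the complex signals through Myd88 and Irak kinases to NF-kB. Il1rn occupies Il1r1 without recruiting Il1rap, Il1r2 binds the ligand but lacks a signalling domain, and Il18bp neutralises interleukin-18 in solution. Pro-interleukin-1 beta and pro-interleukin-18 need cleavage, usually by caspase-1, before they act, a step that RNA does not report.

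Promoter sequence was matched for 8 of the 9 genes in the RefSeq table of build GRCr8 (10 windows, since Il33 and Il1rap have 2 starts each). Il1r2 had no entry. The 250 bases before the annotated start are shown for Il1a, Il1b and Il1rn, the 3 genes of the family with the highest levels after LPS. They lie on chromosome 3, at chr3:136990018-136990267 (Il1a, minus strand), chr3:137036582-137036831 (Il1b, minus strand) and chr3:27520072-27520321 (Il1rn, plus strand), and each is written 5′ to 3′ on the strand of its gene with every motif match in capitals.
Il1a: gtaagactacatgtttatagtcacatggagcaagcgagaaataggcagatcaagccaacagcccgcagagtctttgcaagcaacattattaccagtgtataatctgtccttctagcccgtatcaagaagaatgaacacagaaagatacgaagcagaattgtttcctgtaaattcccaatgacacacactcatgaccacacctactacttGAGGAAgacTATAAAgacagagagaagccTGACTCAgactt
Il1b: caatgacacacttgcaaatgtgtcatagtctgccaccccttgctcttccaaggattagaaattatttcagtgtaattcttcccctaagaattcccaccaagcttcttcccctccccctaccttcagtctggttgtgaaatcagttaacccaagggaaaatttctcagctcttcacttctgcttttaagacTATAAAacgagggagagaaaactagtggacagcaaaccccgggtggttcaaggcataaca
Il1rn: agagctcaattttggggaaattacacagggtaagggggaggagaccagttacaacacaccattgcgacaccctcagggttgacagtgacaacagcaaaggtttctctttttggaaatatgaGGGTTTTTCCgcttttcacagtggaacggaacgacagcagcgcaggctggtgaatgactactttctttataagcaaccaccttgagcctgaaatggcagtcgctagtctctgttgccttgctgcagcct
The letters searched were TATAAA (the TATA box, gene strand only) and, on both strands, the NF-kB consensus, a shorter NF-kB pattern (GGG, any 2 bases, TTTCC), TGACGTCA (cAMP response element), TGANTCA (AP-1), TTGCNNAA (C/EBP), the interferon response element (GAAA, any 2 bases, GAAA) and GAGGAA (PU.1). The 2 NF-kB patterns can match overlapping bases. Il1a and Il1b both hold TATAAA, beginning 32 and 60 bases before the start, as do 8.06% of 33469 promoter windows of this length. Il1a also holds TGACTCA, an AP-1 match found in 6.34% of windows, and GAGGAA, found in 23.3%. In Il1rn the single match was GGGTTTTTCC, beginning 129 bases before the start, and 1.30% of windows hold that pattern. The second start of Il33 has TATAAA and a C/EBP match (9.22% of windows). Il1r1 and both starts of Il1rap have the NF-kB consensus (3.54%), and the first start of Il1rap an interferon response match (3.41%). The 2 windows of Il1rap overlap, and their NF-kB match is the same stretch of sequence. No match was found for Il18, Il18bp or the first start of Il33. A match describes letters in this window and is not a measured site.

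After LPS, 5 of the 9 genes rose and 2 fell, where 12.3% of all tested genes were higher and 28.7% lower. With the replicate number as a block, 6 rose and 2 fell (17.2% and 35.5% of tested genes). The 3 ligands Il1a, Il1b and Il33 and both inhibitors rose. The decoy receptor Il1r2 and the accessory chain Il1rap fell, and Il18 and Il1r1 did not pass. The median change over the 9 genes was 1.57, beside -0.19 over all tested genes. The LPS and Control libraries did not overlap for 8 genes, 6 higher (17.5% of tested genes) and 2 lower (37.6%).

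**Figure D1:**
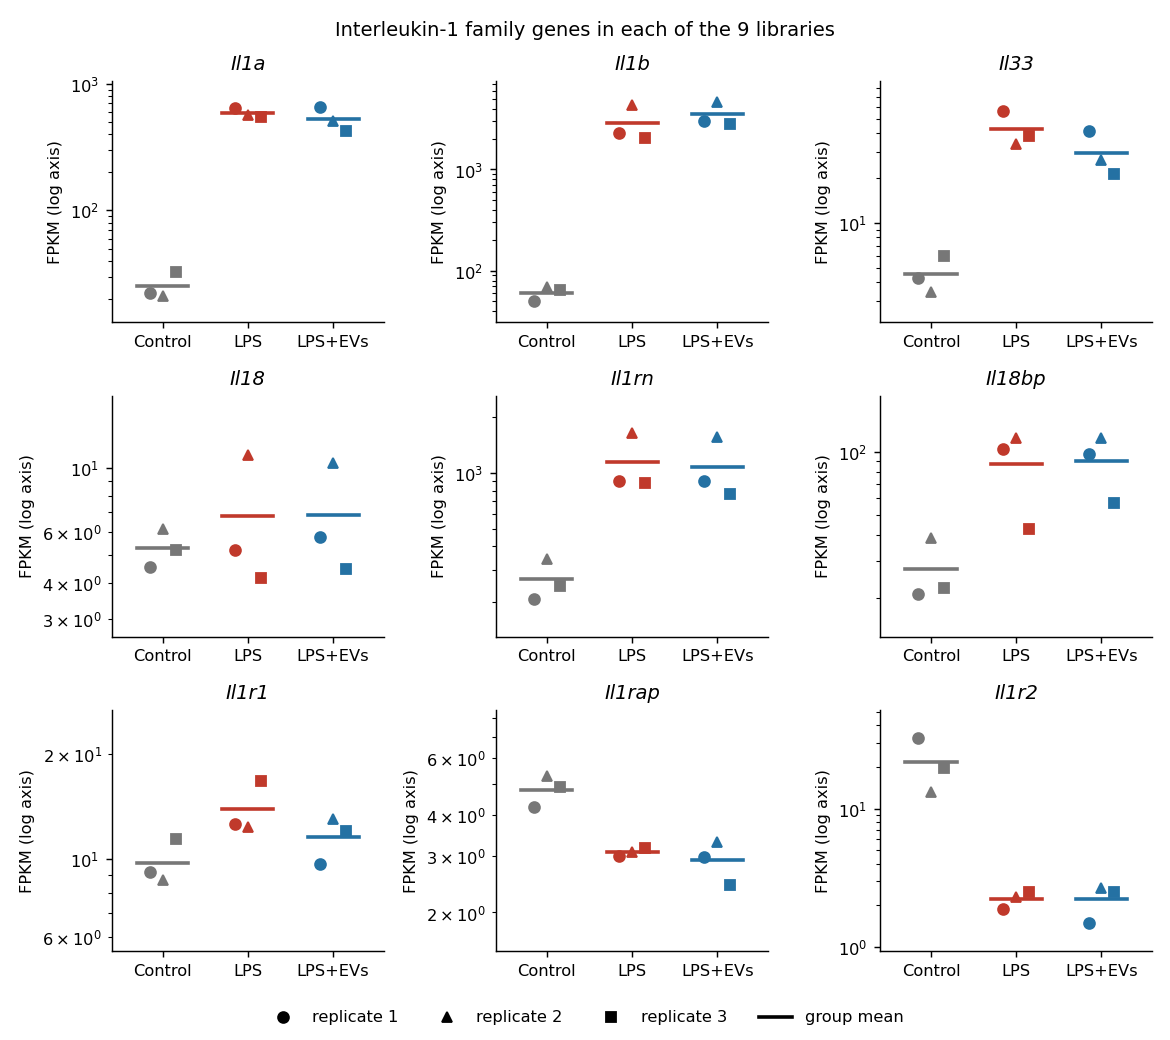
FPKM of each gene (log axes) in the 9 libraries, with symbols for the replicate number and a line for the mean of each group. Il1b runs from 49.7 to 68.7 FPKM in Control and from 2038 to 4671 FPKM in the other 2 groups, Il1r2 runs the other way, and Il18 overlaps in all groups.

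Il1b, which encodes the secreted ligand interleukin-1 beta, stood at 49.7, 68.7 and 64.0 FPKM in Control libraries 1, 2 and 3, at 2306, 4327 and 2038 FPKM in LPS, and at 2986, 4671 and 2844 FPKM in LPS+EVs. Every library with LPS lay far above every Control library, and number 2 was the highest of its group in all 3 groups. By FPKM the gene held rank 1131 to 1549 among all genes in Control and rank 11 to 25 in LPS. Its share of assigned reads was 0.380 ± 0.165% in LPS, beside 0.00799 ± 0.0013% in Control (mean ± SD, n = 3 each). Its rise was the fourth largest of all tested genes, a 47.5-fold ratio of mean FPKM and a log2(FPKM + 1) change of 5.48 (SE 0.31, adjusted p = 7.05e-06, rank 4).

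Il1a, whose product acts within and at the surface of the cell as well as after release, stood at 22.4, 21.0 and 32.8 FPKM in Control, 641, 570 and 544 FPKM in LPS, and 658, 506 and 424 FPKM in LPS+EVs. The groups with LPS did not overlap with Control, and library 2 was not the highest in any group, unlike for Il1b. The LPS libraries varied little, with a coefficient of variation of 8.57% beside 43.3% for Il1b. The ratio of means was 23.0-fold in LPS against Control (log2 change 4.50, SE 0.21, adjusted p = 2.63e-06).

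Il33, the alarmin that signals through Il1rl1 (ST2), was low in Control, at 4.28, 3.46 and 5.97 FPKM. LPS libraries held 55.9, 33.9 and 38.4 FPKM, and LPS+EVs libraries 41.1, 26.5 and 21.1 FPKM. Both groups with LPS lay wholly above Control. The rise in LPS was 9.35-fold by means (log2 change 2.97, SE 0.28, adjusted p = 0.000114). Fibroblasts and endothelial cells are other known sources of Il33. Of 11 stromal and endothelial markers, 10 were tested and none passed in either direction. With the replicate block Col3a1 and Pecam1 fell (adjusted p = 0.00759 and 0.0279), where 35.5% of all tested genes were lower. Pecam1 reached 1 FPKM in no LPS library (at most 0.587) and was not tested in the 6 compared libraries alone. The summed level of the 11 markers was 148 to 461 FPKM for Control, 86.2 to 680 for LPS and 125 to 818 for LPS+EVs, with none at 0 throughout a group. The part of these markers in the Il33 result was not tested.

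Il18, which many myeloid cells hold as a precursor without stimulation, stood at 4.53, 6.12 and 5.19 FPKM in Control and at 5.19, 11.1 and 4.17 FPKM in LPS. In LPS+EVs it read 5.78, 10.4 and 4.45 FPKM. Library 2 was the highest in each group and the groups overlapped. The log2 change in LPS was 0.22 with a 95% interval of -0.59 to 1.03 (adjusted p = 0.645), and it was -0.14 without LPS replicate 2, so the sign of this small difference rested on that library.

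The inhibitors rose beside the ligands. Il1rn, the receptor antagonist, was the highest gene of the family in Control, at 208, 342 and 245 FPKM, and reached 900.04, 1632 and 885 FPKM in LPS and 899.67, 1559 and 764 FPKM in LPS+EVs. Library 2 was again the highest in every group, and no library with LPS overlapped with Control. The ratio of means was 4.29-fold in LPS against Control (log2 change 2.07, SE 0.33, adjusted p = 0.00175). Il18bp stood at 20.8, 38.7 and 22.3 FPKM in Control, 103, 116 and 42.8 FPKM in LPS, and 97.9, 116 and 56.7 FPKM in LPS+EVs. LPS library 3 came within a few FPKM of Control library 2, and the groups just failed to overlap. Il18bp rose 3.2-fold by means (log2 change 1.57, SE 0.42, adjusted p = 0.0177). Its adjusted p rose past the threshold on removing Control library 1 (0.0673), Control library 3 (0.0614) or LPS library 1 (0.0579), and spanned 0.000538 to 0.0673 over all alternatives.

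The receptor genes moved less, apart from the decoy. Il1r1, the signalling receptor, stood at 9.20, 8.70 and 11.4 FPKM in Control, 12.6, 12.4 and 16.7 FPKM in LPS, and 9.67, 13.1 and 12.0 FPKM in LPS+EVs. LPS did not overlap with Control, whereas LPS+EVs did. The difference of 0.46 in LPS (SE 0.17, adjusted p = 0.0567) did not pass in this fit. It did so with the replicate block (adjusted p = 0.0239), with median-of-ratios scaling (0.0186), with both (0.0071) and by limma-voom (0.0497, range over all alternatives 0.0071 to 0.162). Il1rap, the accessory chain, stood at 4.24, 5.28 and 4.89 FPKM in Control, 2.99, 3.08 and 3.16 FPKM in LPS and 2.97, 3.31 and 2.43 FPKM in LPS+EVs. Its values in both groups with LPS lay below all Control values. It fell in LPS by a log2 change of -0.51 (SE 0.14, adjusted p = 0.0187), beside a median gene at -0.19. With scaling that centres the median gene the change was -0.33 and did not pass (adjusted p = 0.148, and 0.074 with the block added), and the call also ended without Control replicate 2, Control replicate 3, LPS replicate 1 or all libraries numbered 2 (0.0708, 0.0655, 0.0553 and 0.054).

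Il1r2, the decoy, had the largest fall among the 9 genes. It stood at 32.2, 13.1 and 19.6 FPKM in Control, 1.89, 2.29 and 2.5 FPKM in LPS and 1.48, 2.67 and 2.51 FPKM in LPS+EVs. Control varied widely but its lowest library still exceeded every library with LPS. The ratio of means was 9.73-fold lower in LPS (log2 change -2.73, SE 0.30, adjusted p = 0.000238). Neutrophils are a known source of Il1r2, and of 12 neutrophil and precursor markers 6 were tested, of which S100a8, Cxcr2 and Csf3r fell and Lcn2 rose (5 fell with the replicate block, S100a9 and Camp in addition, adjusted p = 0.0144 and 0.0193). Cxcr2 passed the filter on low values through Control alone, so its difference was fixed by that filter, and it was not tested without any 1 Control library. Csf3r reached 1 FPKM in no LPS library (at most 0.752) and passed the filter through Control and LPS+EVs, so the filter also shaped its difference. It was not tested without Control replicate 1 or 3, or in the 6 compared libraries alone. The Csf3r call ended without any 1 LPS library (adjusted p = 0.051 to 0.0865), without the filter (0.083) and by limma-voom (0.0658). The S100a8 call ended by limma-voom (adjusted p = 0.116). S100a8 read 187, 6.75 and 81.6 FPKM in Control libraries 1, 2 and 3 and 0.386 to 2.78 FPKM in LPS. Cxcr2 read 18.0, 21.2 and 15.9 FPKM in Control and at most 0.512 FPKM in LPS. Il1r2 and S100a8 were thus lowest in Control library 2, where Cxcr2 was highest. The marker list summed to 34.8 to 279 FPKM for Control, 99.9 to 244 for LPS and 118 to 271 for LPS+EVs. Prtn3 was at 0 in all LPS libraries, and Prtn3 and Ltf were at 0 in all LPS+EVs libraries. Both were already low in Control, with means of 0.0325 and 0.206 FPKM. In LPS nearly all of the summed level was Lcn2, at 97.6 to 240 FPKM (2.5 to 10.3 in Control). Mean levels of S100a9 and Mmp8 were 23.3 and 3.93 FPKM in Control and 1.19 and 0.222 FPKM in LPS. Of the macrophage and monocyte markers 8 of 12 tested genes fell in LPS, Mrc1 from 165 to 9.25 FPKM. The 2 that rose were Cd14 (302 to 739 FPKM) and Cd68 (430 to 542 FPKM). The Cd68 call ended under several alternatives, for instance without Control replicate 1 (adjusted p = 0.135). For both marker lists, the shares over all tested genes were 28.7% lower and 12.3% higher, or 35.5% and 17.2% with the replicate block. The part of these markers in the Il1r2 result was not tested.

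**Figure D2:**
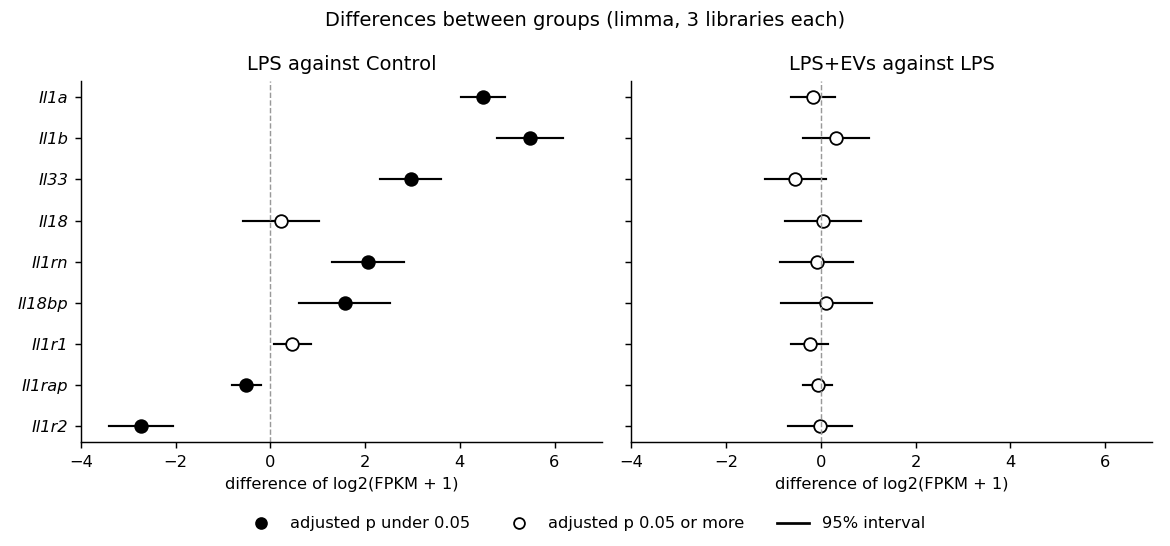
Difference of log2(FPKM + 1) for each gene, with its 95% interval, for LPS against Control and for LPS+EVs against LPS (3 libraries a group). Filled points had an adjusted p under 0.05. On the left 7 of 9 points are filled, and on the right none is and every interval spans 0.

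Levels per kilobase can be compared between genes as FPKM. In Control the order of mean FPKM was Il1rn, Il1b, Il18bp, Il1a, Il1r2, Il1r1, Il18, Il1rap and Il33. Values of Il18bp, Il1a and Il1r2 overlapped between neighbours, as did those of Il18, Il1rap and Il33. In LPS the order was Il1b, Il1rn, Il1a, Il18bp, Il33, Il1r1, Il18, Il1rap and Il1r2, and the sole pair of neighbours to overlap was Il18bp and Il33. LPS+EVs had the same order as LPS, with overlap between Il1r1 and Il18 and between Il1rap and Il1r2. Il33 thus moved from the last place to the fifth, and Il1r2 from the fifth to the last.

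Ratios within a library remove any scaling of that library and show how the balance of the family stood. They are given as descriptions, without a test. Il1rn exceeded Il1b in every Control library, at 4.19, 4.99 and 3.83 times its FPKM. In LPS the antagonist stood at 0.390, 0.377 and 0.434 times Il1b, so the order of the 2 genes was the opposite in all 3 libraries. LPS+EVs libraries read 0.301, 0.334 and 0.269, all below the 3 LPS values. Taken alone, Il1rn and Il1b each overlapped between LPS+EVs and LPS, and how often other gene pairs separate in this way was not counted. On the log2(FPKM + 1) scale the mean ratio was 2.09 ± 0.19 for Control, -1.32 ± 0.11 for LPS and -1.74 ± 0.16 for LPS+EVs (SD, n = 3 each).

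Il1b to Il1a was 2.22, 3.27 and 1.95 in Control, 3.6, 7.59 and 3.75 in LPS, and 4.54, 9.23 and 6.71 for LPS+EVs. Number 2 was the highest in each group, and within each number the ratio was lowest in Control and highest in LPS+EVs. Il18bp to Il18, the inhibitor against its ligand, was 4.58, 6.32 and 4.31 in Control, 19.8, 10.5 and 10.3 in LPS and 16.9, 11.2 and 12.7 for LPS+EVs. All libraries with LPS lay above Control for that pair. Il1r2 to Il1r1, the decoy against the signalling receptor, was 3.5, 1.51 and 1.72 in Control, 0.15, 0.185 and 0.149 in LPS and 0.153, 0.204 and 0.208 for LPS+EVs. The decoy therefore exceeded the signalling receptor per kilobase in Control and was below it in every library with LPS.

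**Figure D3:**
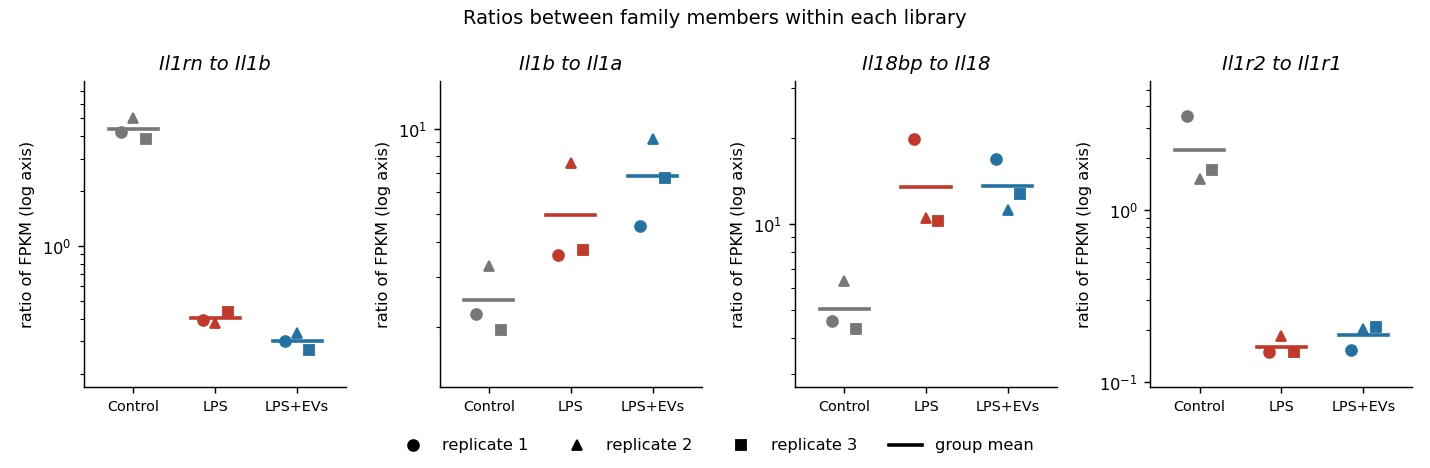
Ratio of FPKM of 2 genes within each library (log axes), with symbols for the replicate number and a line for the group mean. Il1rn to Il1b lies at 3.83 or more in Control, at 0.377 to 0.434 in LPS and at 0.269 to 0.334 in LPS+EVs.

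The comparison of LPS+EVs with LPS asks what the vesicles changed in stimulated cells. None of the 9 genes passed, nor did any gene of the table, so the share of tested genes called was 0%. Nor did the libraries of the 2 groups separate for any of the 9, where 3.14% of tested genes were wholly higher and 3.48% wholly lower. Il33 had the largest difference of the family, a ratio of means of 0.692 and a log2 change of -0.54 (95% interval -1.18 to 0.10, SE 0.28, adjusted p = 0.999, 0.776 with the replicate block). Its value was lower with vesicles in 3 of 3 numbers. Il1b was higher in 3 of 3 numbers, with a ratio of means of 1.21 and a log2 change of 0.32 (95% interval -0.37 to 1.02, SE 0.31, adjusted p = 0.999, 0.776 with the block). Il1rn was lower in 3 of 3 numbers by a log2 change of -0.09 (95% interval -0.85 to 0.67), and in number 1 its values were nearly equal. The SE for Il1rn was 0.33 in this fit and 0.13 with the block, where it did not pass either (adjusted p = 0.892).

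For Il1a the difference was -0.17 (95% interval -0.63 to 0.30), with 1 of 3 numbers higher, and for Il1r1 it was -0.24 (-0.63 to 0.15), also with 1 of 3 higher. Il18 (0.04, -0.77 to 0.85), Il18bp (0.11, -0.85 to 1.07), Il1rap (-0.07, -0.38 to 0.24) and Il1r2 (-0.02, -0.69 to 0.66) had differences near 0. These intervals, from the fit without the block, leave room for changes of up to about the size of 1 on the log2 scale for Il1b, Il18bp and Il33. With the replicate block the SE was smaller for these 3 genes (0.17, 0.22 and 0.23, beside 0.31, 0.42 and 0.28), and none passed. The adjusted p-values do not show that the groups were alike.

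LPS+EVs against Control shares its Control libraries with the first comparison and is given beside it. The same 5 genes were called higher and the same 2 lower, beside 13.5% of tested genes called up and 30.8% called down (44.3% in all, 1505 and 3436 genes, or 2081 and 2481 with median-of-ratios scaling). Log2 changes were 5.80 for Il1b, 4.33 for Il1a, 2.43 for Il33, 1.97 for Il1rn, 1.68 for Il18bp, -0.58 for Il1rap and -2.75 for Il1r2. The adjusted p-values of these 7 ran from 3.47e-06 for Il1a to 0.0121 for Il18bp. Il1r1 stood at a difference of 0.22 (adjusted p = 0.316, 0.0384 with the block and median-of-ratios scaling) and Il18 at 0.26 (adjusted p = 0.578). Il1rap did not pass with median-of-ratios scaling (adjusted p = 0.0907).

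Other receptors of the family sit next to 2 of the 9 genes. In the RefSeq order of build GRCr8, Il1r2, Il1r1, Il1rl2, Il1rl1, Il18r1 and Il18rap follow each other on 1 chromosome, with a histone-like gene between the first 2. Of 5 further receptors found under their symbols, 4 were tested, and in LPS against Control 3 fell and none rose, with a median change of -1.56. Over all tested genes 28.7% were lower and 12.3% higher. With the replicate block 3 of these receptors fell and 1 rose, where 35.5% of all tested genes were lower and 17.2% higher. Il1rl1, the receptor of interleukin-33, read 6.42, 13.7 and 11.9 FPKM in Control and 0.127, 0.0224 and 0.220 FPKM in LPS, from 54, 9 and 93 reads (log2 change -3.32, SE 0.24, adjusted p = 2.64e-05). Il18r1, the ligand-binding chain for interleukin-18, read 2.46, 3.0 and 2.63 FPKM in Control and 0.413, 0.0631 and 0.521 FPKM in LPS (log2 change -1.49, adjusted p = 0.000477). Both passed the filter on low values through Control alone, so the count and median of these receptors describe genes that had to differ, and without any 1 Control library the pair was not tested.

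Il18rap, the second chain of the interleukin-18 receptor, fell by a log2 change of -1.64 (SE 0.40, adjusted p = 0.0123, 0.0513 without Control replicate 3). Il1rl2, the interleukin-36 receptor, stood at 1.15, 0.456 and 0.802 FPKM in Control and 3.39, 1.049 and 4.03 FPKM in LPS. It did not pass, with a log2 difference of 1.00 (SE 0.41, adjusted p = 0.0813). It did so with the replicate block (adjusted p = 0.0042) or without LPS replicate 2 (0.0161). Sigirr, an inhibitory receptor of the family, was at 0.215 FPKM or less in every library and was not tested. Mast cells and basophils are known to carry Il1rl1. Of 10 of their markers 8 were in the table, which summed to 2.61 to 3.76 FPKM for Control, 4.03 to 5.58 for LPS and 4.83 to 7.64 for LPS+EVs. Only Gata2 among them was tested, and it rose (call ended without Control replicate 1, adjusted p = 0.0572). Gata2 also carried the rise of the sum, with means of 1.95 FPKM in Control and 4.14 FPKM in LPS, while the other 7 had lower means in LPS, for example Mcpt8 (0.753 and 0.328 FPKM) and Kit (0.218 and 0.103 FPKM). Il5ra averaged 0.00819 FPKM in Control and was at 0 in all LPS and LPS+EVs libraries, and Cpa3 averaged at most 0.162 FPKM in any group. In LPS+EVs against LPS none of the 4 receptors passed.

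**Figure D4:**
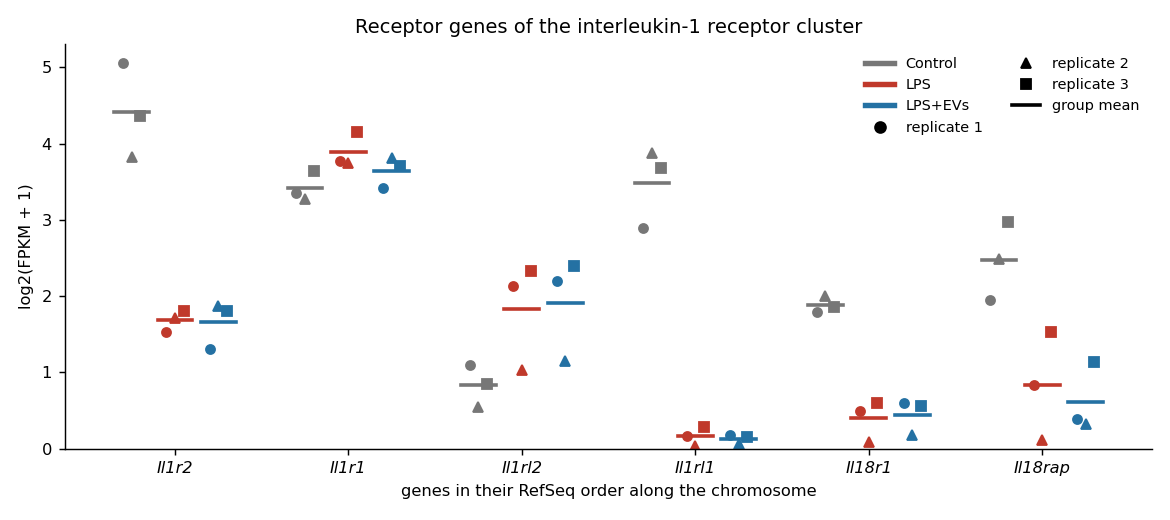
Level of 6 receptor genes as log2(FPKM + 1) in each library, in their RefSeq order along the chromosome, with colours for the groups, symbols for the replicate number and a line for the group mean. Il1r2, Il1rl1, Il18r1 and Il18rap are lower in the libraries with LPS, Il1r1 is within a narrow range, and Il1rl2 is higher on average.

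Genes of processing and release act on the proteins of this family. Of 18 found under their symbols, 15 were tested, and 5 rose and 1 fell in LPS against Control, with a median change of 0.16. The pooled count is close to the 41% of all tested genes called in either direction, whereas by direction 12.3% of all tested genes were higher and 28.7% lower. With the replicate block P2rx7, an ATP-gated channel, also fell (adjusted p = 0.0259), where 17.2% of all tested genes were higher and 35.5% lower. Ninj1, which ruptures the membrane of dying cells, rose from 185 to 442 FPKM (log2 change 1.25, SE 0.11, adjusted p = 8.64e-05). Panx1, a channel that releases ATP, rose by 0.79 (adjusted p = 0.00476) and the DNA sensor Aim2 by 1.03 (adjusted p = 0.00608). Gsdmd, the pore through which interleukin-1 beta leaves the cell, fell from 18.1 to 9.73 FPKM (log2 change -0.84, SE 0.17, adjusted p = 0.00507). Casp1 stood at 44.5 FPKM in LPS and 38.2 FPKM in Control (log2 difference 0.16, adjusted p = 0.679). The inflammasome sensors Nlrp3 (0.70, adjusted p = 0.0477) and Nlrc4 (0.90, adjusted p = 0.0313) rose, and both calls ended under several alternatives, for instance without a filter (0.0928 and 0.0666, ranges 0.00894 to 0.139 and 0.00139 to 0.101).

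Among 19 genes of receptor signalling, all tested, 5 rose and 4 fell, and the median change was -0.04. The pooled count is again near the 41% over all tested genes (12.3% higher and 28.7% lower). The count of 9 was 4 without Control replicate 1 and 5 without Control replicate 3, and 10 with the replicate block, where Irak4 also fell (adjusted p = 0.035). With that block 17.2% of all tested genes were higher and 35.5% lower. Irak2, a kinase-like adaptor below Myd88, rose from 15.95 to 56.8 FPKM (log2 change 1.77, SE 0.12, adjusted p = 2.01e-05), and the ubiquitin ligase Traf6 by 0.88 (adjusted p = 0.00443). The kinase genes Ikbkb (-0.80, adjusted p = 0.00396) and Mapk14 (-1.11, adjusted p = 0.00695) fell. Of 12 genes listed for control of Il1b expression 3 rose and 2 fell, with a median of 0.28. Their pooled count is also near the 41% over all tested genes (12.3% higher and 28.7% lower). The count of 5 was 3 without LPS replicate 1, LPS replicate 2 or the filter, and 6 with the replicate block, where the NF-kB subunit Rel also rose (adjusted p = 0.0285). The 6 stand beside the same block shares of 17.2% and 35.5%. Zfp36, which promotes decay of cytokine messages, rose by 1.97 (adjusted p = 0.0106), and the factors Spi1 (PU.1) and Cebpd fell by 0.88 and 1.42 on the log2 scale (adjusted p = 0.00209 and 0.00181). Hif1a rose by 1.1 (adjusted p = 0.0215) but did not pass on removing LPS library 1 (0.0522), LPS library 2 (0.0561) or the filter on low values (0.0505). Of these 12 genes 8 passed when the replicate block was joined with median-of-ratios scaling, a setting for which no share over all tested genes is given here.

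Targets that interleukin-1 and NF-kB have in common were the most uniform group. All 20 were tested, 17 rose and none fell, beside 12.3% of all tested genes higher and 28.7% lower, and the median change was 2.47. Cxcl2 rose from 21.3 to 546 FPKM (log2 change 4.62, SE 0.13, adjusted p = 7.6e-07). The neutrophil attractant Cxcl1 rose by 5.20 and the growth factors Csf2 and Csf3 by 6.06 and 4.80 (adjusted p of 9.33e-05 or less for each). The 3 that did not pass were Ccl2 (1.30), Mmp9 (0.59) and Mmp13 (1.30). Ccl2 and Mmp13 passed with the replicate block (adjusted p = 0.0221 and 0.0389). LPS reaches the same genes through Tlr4 and the same adaptor, so the share of interleukin-1 in these changes cannot be told apart here. In LPS+EVs against LPS none of the tested genes of these lists passed, and the medians lay between -0.12 and 0.02 for the 4 lists of 12 to 20 genes.

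**Figure D5:**
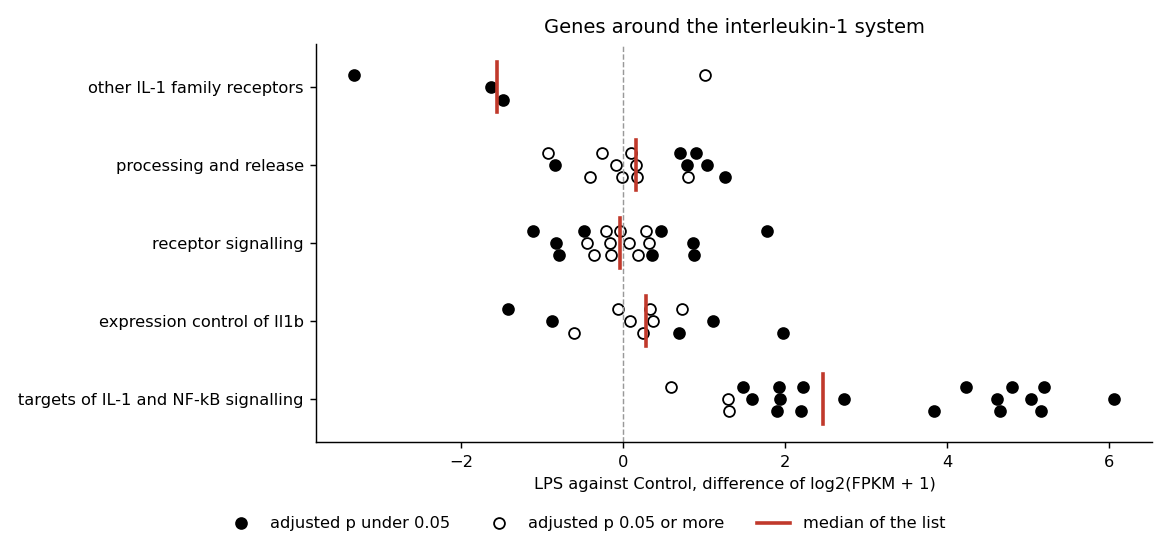
Difference of log2(FPKM + 1) between LPS and Control for each tested gene of 5 lists (1 point a gene, filled where the adjusted p was under 0.05), with the median of each list as a line. The targets lie to the right, with a median of 2.47, and the receptors to the left, with a median of -1.56. Of the 4 receptors Il1rl1 and Il18r1 passed the filter on low values through Control alone, so they had to differ.

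Il36b was the sole further cytokine of the family found under its symbol. It stood at 1.93, 1.98 and 3.05 FPKM in Control, 5.11, 2.97 and 2.96 FPKM in LPS and 4.69, 5.02 and 3.65 FPKM in LPS+EVs. LPS overlapped with Control and did not pass (log2 difference 0.48, adjusted p = 0.112), while LPS+EVs did not overlap with Control and passed (0.72, adjusted p = 0.0269, range over all alternatives 0.0119 to 0.114). That call ended without Control replicate 1 (0.0952), Control replicate 2 (0.0859), LPS+EVs replicate 1 (0.0764) or LPS+EVs replicate 2 (0.082). LPS+EVs against LPS gave 0.24 (SE 0.22, adjusted p = 0.999).

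The genes whose log2(FPKM + 1) followed a member most closely over the 9 libraries are given by Pearson's r as a description. These points share the same libraries and 1 large step between Control and the other groups. For Il1b they were Slc11a2, Tgif1 and Cd274 (r = 0.997, 0.997 and 0.996), for Il1a Hilpda, Mdm2 and Csf2 (0.994, 0.993 and 0.992), for Il1rn Dusp1, Cflar and Gbp2 (0.996, 0.994 and 0.993), and for Il33 Emc3, Hist1h2bq and Mcoln3 (0.990, 0.989 and 0.987). For Il18bp they were Rhoc, Pttg1ip and Rer1 (0.983, 0.977 and 0.975), for Il1rap Tpm3, Alcam and Ube2ql1 (0.989, 0.989 and 0.977), and for Il1r2 Ppil1, Esco2 and Lfng (0.992, 0.991 and 0.991). A value over 0.9 was reached by 663 genes for Il1b and 1240 for Il1r2, so these names are single examples of a common pattern. Il18 and Il1r1 had fewer companions, with 67 and 12 genes over 0.9, led by Zfp7, Psmd13 and Malt1 (0.974, 0.973 and 0.971) and by Galnt1, Rnf34 and St3gal1 (0.960, 0.954 and 0.945).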

How the data were processed

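The authors' deposited table gives FPKM per gene in 9 libraries. Per the submitters' processing notes fastp, HISAT2, HTSeq, R 3.2.0 and build mRatBN7.2 were used, and settings are not given in the sources used here. Groups, replicate numbers and columns were matched by the sample titles. Steps of 1 read in the FPKM gave whole reads, within 0.002 reads, for 100% of 18833 genes seen in at least 2 libraries, up to a whole factor shared by a gene's counts, and 3 reads in 1 kilobase are 0.0761 to 0.0933 FPKM (counting error only).

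The 11141 genes that reached 1 FPKM in 3 or more libraries were fitted as log2(FPKM + 1) with limma 3.58.1 (trend, R 4.3.3), all 9 libraries in 1 fit, 1 mean per group. P-values are two-sided, Benjamini-Hochberg adjusted over all tested genes of a comparison, with a threshold of 0.05. The fit without the replicate block was also run on simulated libraries that carried no replicate effect, so that run does not bear on the block fit. The members and gene lists were chosen with earlier results of these data known. Named are all members, up to 4 genes per list with the smallest adjusted p (in LPS+EVs against LPS all were tied, so counts are given), genes that explain a count, and the 3 genes most like each member. Casp1, P2rx7, Irak4, Rel, Nlrp3, Nlrc4, Il1rl2, Sigirr, Map4k4, Slc9a4 and the marker genes were named after their values were seen.

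Libraries with 1 replicate number deviated together across groups (r = 0.284 to 0.863 over 9 pairs, against -0.745 to 0.426 for different numbers), so the numbers were taken to pair the cultures, and a fit with the number as a block is given where it changes a call of a gene or count printed here. No 2 replicates agreed within sampling noise (chi-square per degree of freedom 45.4 or more). Promoters came from RefSeq (GRCr8), a build other than that of the files, matched by gene ID.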

Additional observations from a re-analysis of the deposited data

How the results depend on the processing

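The number of genes called out of 9 was 7 in LPS against Control and stayed within 5 to 8 under 18 alternatives (5 to 7 without 1 library, 8 with the replicate block or limma-voom, 6 without the libraries numbered 2). It was 7 in LPS+EVs against Control (6 to 8, and 7 without any 1 library) and 0 in LPS+EVs against LPS under all of them. The replicate block changed the call of Il1r1 in LPS against Control (log2 difference 0.46, adjusted p = 0.0239) and, alone, no other call of the 9 genes. The calls of Il1a, Il1b, Il33, Il1rn and Il1r2 held under every alternative in both comparisons with Control.

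Signs turned only where nothing was called. Without 1 library, Il18 ranged from -0.14 to 0.47 in LPS against Control and from -0.039 to 0.49 in LPS+EVs against Control, and it was -0.049 in the first without the libraries numbered 2. In LPS+EVs against LPS the ranges without 1 library were -0.26 to 0.41 for Il18, -0.40 to 0.20 for Il1rn, -0.34 to 0.41 for Il18bp, -0.14 to 0.020 for Il1rap and -0.12 to 0.16 for Il1r2. With 0.1 FPKM added, the log2 ratio of Il1r2 to Il1r1 was -2.59 in LPS and -2.37 in LPS+EVs, beyond 1 SD of the values with 1 FPKM added (-2.20 and -1.98). Counts in the further lists left the 1.5-fold range in 21 of 324 cases, some because receptor genes were no longer tested. With 3 libraries a group, the spread between cultures and not read depth limits these comparisons.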

Other observations

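Il1b, Il1rn, Il18 and Il18bp each had their highest value in library 2 of all 3 groups, while Il33 had its lowest there in Control and LPS. Il1rl2, Il18r1 and Il1rl1 had their lowest values in library 2 of LPS and of LPS+EVs. Il1rn, at 0.248 ± 0.0928% of assigned reads in LPS (n = 3), and Il1b, at 0.380 ± 0.165%, were far above Il1r1 at 0.0105 ± 0.00185%. Map4k4, the gene beside the receptor cluster on the side of Il1r2, read 68.7 to 78.6 FPKM in Control and 182 to 224 FPKM in LPS, and Slc9a4, on the other side, was at 0 in 8 of 9 libraries.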
